A study of Rattus norvegicus with 12 samples.

Results

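Kidney circular RNAs of spontaneously hypertensive rats (SHR) were set against those of Wistar Kyoto rats (WKY), with 3 male rats of each strain and 1 array per rat. The circRNAs described are the 11977 probes, of 14145 circRNA probes on the array, whose spots cleared background on each of the 3 SHR arrays or each of the 3 WKY arrays. Of these, 11976 could be tested, and 1 had too many missing spots. The same study held 3 Dahl salt-sensitive rats (S) and 3 Dahl salt-resistant rats (R), which serve here as an outside level. All 12 rats were 57 days old and ate a low-salt diet with 0.3% NaCl after weaning. The labels give no other treatment, and all groups share the RNase R digestion of their RNA. The inbred strains differ at many loci besides those for blood pressure, so strain and hypertension cannot be told apart in SHR vs WKY.

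A circular RNA forms when a downstream splice site of a gene is joined to an upstream one, which closes one or more exons into a ring. With no free end, the ring resists exonucleases such as RNase R, which digests linear RNA, and it usually turns over more slowly than the linear transcript of its host gene. SHR is an inbred model of genetic hypertension in which a transplanted kidney carries part of the blood pressure with it, and WKY, bred from the same Wistar stock, is its customary normotensive counterpart. No host gene is assigned to these circRNAs in the sources at hand, so each is given by its probe ID. In whole-kidney RNA, fewer cells of a type and less of a circRNA per cell cannot be told apart. Of 24 kidney and cell type markers listed for a tissue check, 1 had a usable mRNA probe: Cyp2e1, a cytochrome P450 that oxidises ethanol, was above background on all 12 arrays.

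Levels are log2 signals minus the 75th percentile of the array's circRNA probes, so 0 is a circRNA brighter than 3 in 4 probes of its array. Feature Extraction, the scanner software, flags each spot as well above background or not. The share of circRNA probes with this flag was 84.7% to 89.5% on SHR arrays and 84.6% to 87.6% on WKY arrays. It was lowest on the array of S rat 1 (70.3%), so dim circRNAs were missed more often there. All SHR arrays lay on slide 2 together with WKY rat 3. The arrays of WKY rats 1 and 2 and of all S and R rats lay on slide 1.

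The array of SHR rat 2 stood apart from those of SHR rats 1 and 3. Over the circRNAs tested, its median absolute difference was 0.52 and 0.54 log2 units from the other SHR arrays, which differed from each other by 0.18. From the R arrays it differed by 0.22 to 0.34, and from the WKY arrays by 0.40 to 0.60. It was the SHR rat nearest to the mean of S and R for 65.8% of the circRNAs. The same array was low in linear mRNA, at a mean of -1.79 over 35 mRNA probes, against -0.13 and -0.42 in SHR rats 1 and 3 and -0.90, 0.13 and -0.23 in WKY rats 1, 2 and 3. S and R rats lay between -2.12 and -1.74, so SHR rat 2 was at their level of linear RNA. The part of this difference in the circRNA results was not tested, and each call below is therefore also given without SHR rat 2.

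**Figure D1:**
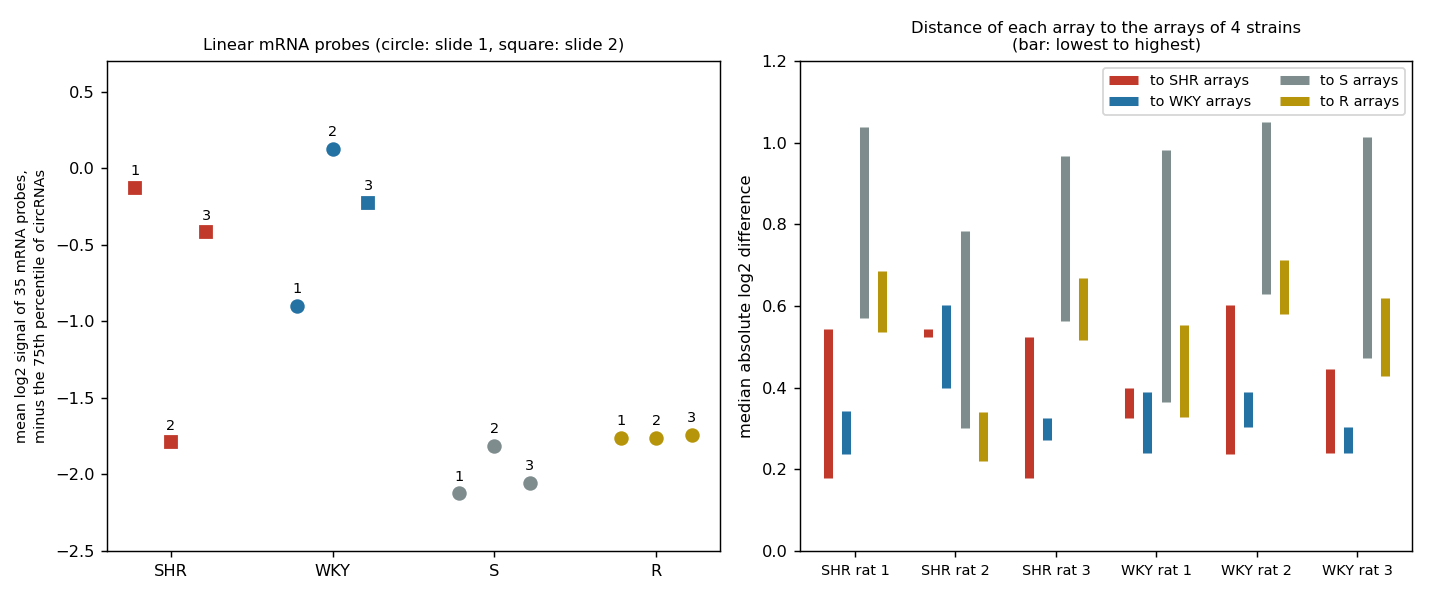
Left, mean log2 signal of 35 linear mRNA probes on each array, by strain, with rat numbers beside the points and the slide as the marker shape. Right, the lowest to the highest median absolute log2 difference between each SHR or WKY array and the arrays of each strain. SHR rat 2 sits at the S and R level on the left and is closer to R arrays than to the other SHR arrays on the right.

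SHR vs WKY asks which kidney circRNAs differ between the hypertensive strain and its normotensive counterpart. Few passed the test: 12 circRNAs were called (0.0965% of 12438 tested), 4 higher in SHR (0.0322%) and 8 lower (0.0643%), by limma on all 12 arrays with a Benjamini-Hochberg adjusted p under 0.05. The 5 called circRNAs with arrays above background in both strains had log2 fold changes of 1.45 to 3.64 in size, and with the other 7 at their lower bound the median size over the 12 was 2.22. Over all tested circRNAs the median size was 0.19, and the median log2 fold change of all tested was 0.03. An unadjusted p under 0.05 was found for 245 circRNAs (1.97%).

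Every called circRNA had all SHR rats on one side of all WKY rats. That alone is common, since 1155 of the tested circRNAs (9.29%) had no overlap, 1128 of them among the circRNAs above background in SHR or WKY. Of those, 705 were higher in SHR and 423 lower, and the median gap between the nearest rats of the strains was 0.10 log2 units. Among the 11976 tested circRNAs above background in SHR or WKY, a gap of at least 1 log2 unit was found for 34, 10 higher and 24 lower in SHR. These include all 12 calls, but gap and call are read from the same rats, so this is a description. Of those 24, 9 had no SHR array above background, so their gaps run to unmeasured levels. A gap of at least 2 was found for 9, of which 1 was higher and 8 lower in SHR, and 8 of the 9 were called. None of those 8 lower ones had an SHR array above background, so their number past 2 log2 units is not a measured one.

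**Figure D2:**
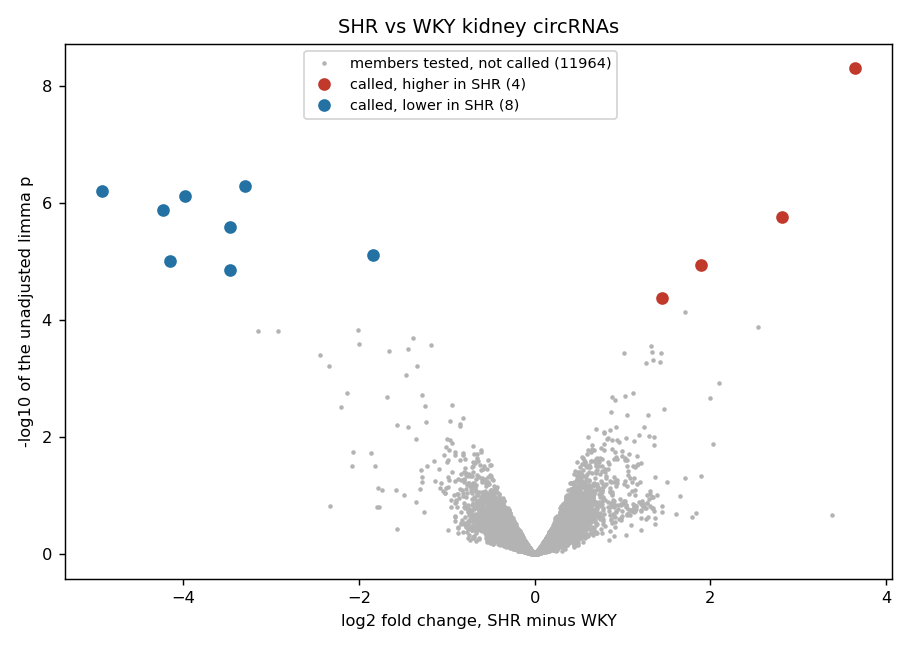
Log2 fold change, SHR minus WKY, on the x axis against -log10 of the unadjusted limma p on the y axis, for the 11976 circRNAs tested. The 4 called circRNAs higher in SHR (red) and the 8 lower in SHR (blue) have the smallest p-values, with ASCRPR013242 above all others and ASCRPR013784 close to circRNAs that were not called. Fold changes of circRNAs with no SHR array above background are fitted values, not bounds.

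The count depends on how the spread and the slide are treated. It was 7 without WKY rat 3, 7 without SHR rat 1, 25 without S rat 2, 86 with array weights, 6 with the deposited value table and 1 each with normexp background correction, with the slide as a block and with only the circRNAs above background on all 12 arrays. The slide block rests on WKY rat 3 alone, the only WKY array on the slide of the SHR arrays. The part of the slide in the other calls was not tested beyond that fit. Without SHR rat 2 the count was 8, and 7 of the 12 called circRNAs were among them.

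The circRNAs higher in SHR come first. ASCRPR013242 was bright and had the smallest p of the comparison. Its level was 1.49, 1.52 and 1.45 in SHR rats 1, 2 and 3, against -2.34, -2.004 and -2.13 in WKY rats. SHR rats were tightly bunched and far above every WKY rat, by at least 3.45 log2 units. The mean of 1.49 ± 0.036 (SD, n = 3) in SHR exceeded that of 89.2% of tested circRNAs, and the mean of -2.16 ± 0.17 in WKY that of 30.2%, a log2 fold change of 3.64 (SE 0.24, limma adjusted p = 6.12e-05), or 12.5-fold. Without SHR rat 2 it was 3.63 (adjusted p = 0.00066), and with the slide as a block 3.61 (adjusted p = 0.0133). It lost its call in 1 of 25 alternatives, the one with only the 4 arrays of slide 2.

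S and R rats lay between the strains on ASCRPR013242, at -0.72, -0.41 and -0.13 in S and 0.32, 0.46 and 0.96 in R. Both SHR and WKY departed from this level, in opposite directions. SHR was higher than the mean of S and R by 1.41 log2 units (SE 0.21, limma adjusted p = 0.00456), and WKY was lower, with a difference of -2.24 (SE 0.21, adjusted p = 0.00114). The step in WKY was the longer one. The difference between the strain pairs, SHR minus WKY less S minus R, was 4.64 (adjusted p = 0.00014), a test that 11 circRNAs passed (0.0884%). Taken strain by strain, SHR differed from S (1.91, adjusted p = 0.00112) but not detectably from R (0.91, adjusted p = 0.148).

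ASCRPR000194 was at -1.29, -2.03 and -1.68 in SHR rats, against -4.98, -4.62 and -3.83 in WKY rats, of which rat 3 alone was above background. The fitted log2 fold change, against a WKY level mostly not above background, was 2.81 (SE 0.32, limma adjusted p = 0.00349), and 2.99 without SHR rat 2 (adjusted p = 0.0139). With the slide as a block it was 2.16 (adjusted p = 0.286). It is the called circRNA in which S and R have no common level, because S vs R was itself called (log2 fold change -3.11, adjusted p = 0.00236), as it was for 13 circRNAs (0.105%). The rats fell into a bright pair of strains and a dim pair. SHR lay near R, which had -1.63, -1.19 and -1.36 (difference -0.28, adjusted p = 0.655), and WKY near S, which had -4.39, -4.27 and -4.86 with 1 of 3 arrays above background (difference 0.03, adjusted p = 0.951). Neither SHR nor WKY is therefore the one that departs.

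ASCRPR009419 was a dim circRNA in which SHR stood alone. It measured -2.17, -2.10 and -1.90 in SHR rats, against -4.01, -3.75 and -4.09 in WKY rats, all above background. The log2 fold change was 1.89 (SE 0.26, limma adjusted p = 0.0142). S and R rats spanned -4.55 to -3.32, a range that held all 3 WKY rats and no SHR rat. All R arrays but only 1 of 3 S arrays were above background, so the S part of that range was mostly not measured. SHR exceeded the mean of S and R by 1.96 (SE 0.23, adjusted p = 0.00136), whereas WKY differed from it by 0.068 (SE 0.23, adjusted p = 0.841). Without SHR rat 2 the log2 fold change between SHR and WKY was 1.92 and missed the threshold (adjusted p = 0.0555).

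ASCRPR013784 had the same shape at a higher level, at -0.042, -0.066 and -0.23 in SHR rats, against -1.70, -1.63 and -1.36 in WKY rats. Its log2 fold change of 1.45 (SE 0.23) passed narrowly (limma adjusted p = 0.0428), and it lost its call in 17 of 25 alternatives, among them the one without SHR rat 2 (1.43, adjusted p = 0.141). All 12 arrays had it above background. WKY lay within the S and R range of -1.73 to -0.996 and differed from the mean of S and R by -0.11 (adjusted p = 0.71). SHR lay above that range, by 1.34 over the mean of S and R (SE 0.20, adjusted p = 0.00434).

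**Figure D3:**
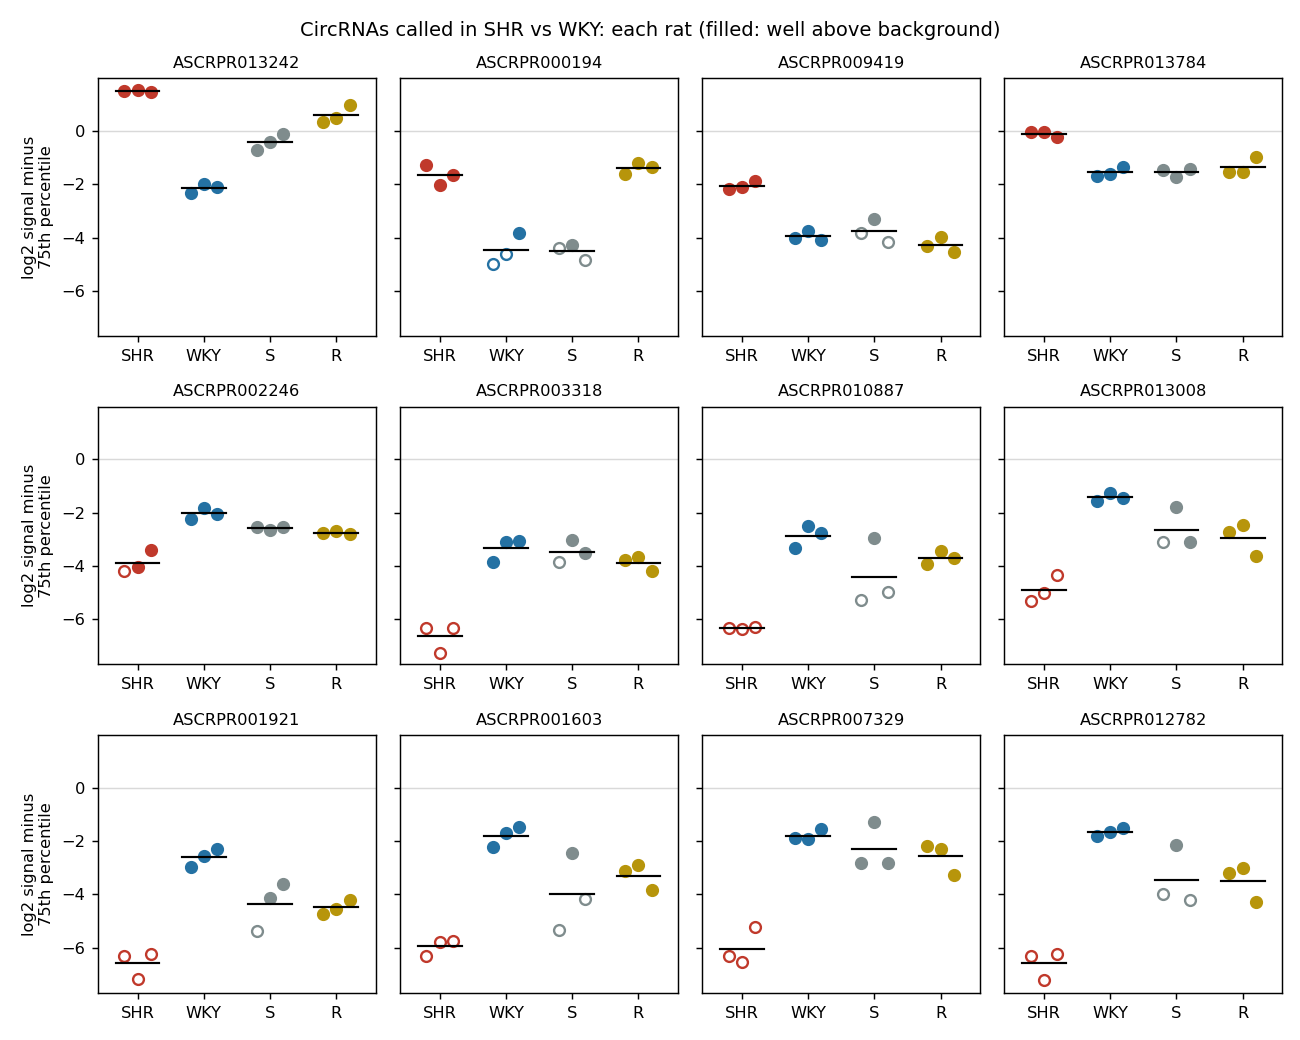
Log2 signal minus the array's 75th percentile for each rat of SHR, WKY, S and R in the 12 circRNAs called in SHR vs WKY, with bars at the strain means. Filled points are well above background and open points are not. In the 7 panels from ASCRPR003318 to ASCRPR012782 all SHR points are open and all WKY points are filled.

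In 7 of the 8 with less signal in SHR, every WKY array cleared background and no SHR array did. That pattern, whether called or not, was found for 15 circRNAs (0.121% of those tested). A spot that dim holds no measured level, so the difference is given as a lower bound: the WKY mean against the dimmest signal that still counted as above background on the SHR arrays, or the probe's own signal where that was higher. Signals are printed to show where the rats lie. SHR rat 1 had the same signal, -6.32, for all 7 but ASCRPR013008, so it is not a separate reading of each. The 7 are among the circRNAs described through their WKY arrays alone, and the filter of the test was also met by their R arrays. The adjusted p-values of the 7 come from the fitted signals, unmeasured SHR levels included, and not from the bounds. With normexp background correction none of the 7 was called (lowest limma adjusted p = 0.785).

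ASCRPR012782 was at -6.32, -7.22 and -6.21 in SHR rats, none above background, against -1.80, -1.67 and -1.53 in WKY rats. Its level was at least 6.45-fold lower in SHR (limma adjusted p = 0.00232, and 0.0139 without SHR rat 2). WKY, at -1.66 ± 0.13 (SD, n = 3), was also brighter than S, with -3.97, -2.17 and -4.20, and R, with -3.19, -3.00 and -4.28. S had 1 of 3 arrays above background, and R all 3. WKY exceeded the mean of S and R by 1.80 (SE 0.44, adjusted p = 0.0187) and SHR lay below it (adjusted p = 0.00377). Against R alone, SHR was at least 1.82-fold lower (adjusted p = 0.0417), and WKY missed the threshold (adjusted p = 0.0764).

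ASCRPR007329 was the only one of these 7 with every S and R array above background. SHR rats were at -6.32, -6.54 and -5.21 with no array above background, against -1.90, -1.94 and -1.56 in WKY rats. It was at least 5.86-fold lower in SHR than in WKY (limma adjusted p = 0.00328, and 0.0222 without SHR rat 2). S rats, at -2.81, -1.27 and -2.81, and R rats, at -2.17, -2.31 and -3.26, all had it above background. SHR was at least 4.15-fold lower than S (adjusted p = 0.00109) and at least 3.42-fold lower than R (adjusted p = 0.0153). WKY, with a mean of -1.80 ± 0.21, differed from the mean of S and R by 0.64 (SE 0.41, adjusted p = 0.253).

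ASCRPR003318 was dim in every strain that had it. No SHR array was above background, at -6.32, -7.25 and -6.34, and WKY rats had -3.85, -3.11 and -3.07. The fold was at least 2.02 (limma adjusted p = 0.00232, and 0.0127 without SHR rat 2). WKY lay among the S and R rats, which spanned -4.18 to -3.03 with 2 of 3 S arrays above background. WKY differed from the mean of S and R by 0.33 (adjusted p = 0.415). SHR signals lay below all S and R rats (adjusted p = 0.00126 against the mean of S and R).

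ASCRPR010887 had WKY rats 2 and 3 above the highest S or R rat and WKY rat 1 among them. SHR rats were at -6.32, -6.37 and -6.28, none above background, against -3.32, -2.52 and -2.75 in WKY rats. ASCRPR010887 was at least 2.81-fold lower in SHR (limma adjusted p = 0.0157). It lost its call without SHR rat 2 (adjusted p = 0.0829). SHR was at least 1.58-fold lower than R (adjusted p = 0.0473), where rats had -3.92, -3.45 and -3.69. S had 1 of 3 arrays above background, rat 2 at -2.94. WKY exceeded the mean of S and R by 1.18, which missed the threshold (SE 0.42, adjusted p = 0.058). Against S alone, mostly not above background, WKY passed (adjusted p = 0.0342), and against R alone it did not (adjusted p = 0.297).

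In the remaining dim-in-SHR circRNAs all WKY rats lay above the S and R rats, and all SHR signals lay below them. ASCRPR013008 was at -5.33, -5.02 and -4.32 in SHR rats, against -1.56, -1.28 and -1.44 in WKY rats. It had the highest lower bound of the comparison, at least 7.60-fold lower in SHR (limma adjusted p = 0.00458, and 0.0344 without SHR rat 2). S rats had -3.11, -1.80 and -3.10, with 2 of 3 arrays above background, and R rats -2.71, -2.46 and -3.63. WKY lay above them by 1.38 over their mean (SE 0.36, adjusted p = 0.0219), and SHR was at least 2.67-fold below R (adjusted p = 0.0837, and 0.00843 against the mean of S and R).

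ASCRPR001603 was at -6.32, -5.77 and -5.74 in SHR rats, against -2.21, -1.69 and -1.49 in WKY rats. It was at least 5.89-fold lower in SHR (limma adjusted p = 0.0134), a call it lost without SHR rat 2 (adjusted p = 0.0555). R rats lay between, at -3.14, -2.91 and -3.82, and S rats were scattered, at -5.33, -2.46 and -4.17 with rat 2 alone above background. WKY exceeded the mean of S and R by 1.84 (SE 0.49, adjusted p = 0.023), and SHR lay below it (adjusted p = 0.0261).

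ASCRPR001921 was at -6.32, -7.18 and -6.22 in SHR rats, against -2.97, -2.54 and -2.29 in WKY rats. The fold was at least 3.37 (limma adjusted p = 0.00232, and 0.0139 without SHR rat 2). Its S rats, at -5.35, -4.13 and -3.60, and R rats, at -4.75, -4.53 and -4.19, were dim as well. This made WKY the brightest strain, by 1.82 over the mean of S and R (SE 0.37, adjusted p = 0.0114), with SHR below it (adjusted p = 0.00788). No lower bound of SHR under S or under R could be given, because S and R were themselves near the dimmest signal that SHR arrays could measure, so the SHR departure rests on unmeasured levels.

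ASCRPR002246 is the circRNA lower in SHR that SHR arrays still measured. SHR rats had -4.19, -4.04 and -3.39, with rats 2 and 3 above background, against -2.23, -1.82 and -2.05 in WKY rats. The log2 fold change was -1.84 (SE 0.24, limma adjusted p = 0.0118), and -1.75 without SHR rat 2 (adjusted p = 0.0555). S and R rats were close to each other, from -2.81 to -2.55, and lay between the strains. SHR was lower than their mean, with a difference of -1.20 (SE 0.21, adjusted p = 0.0102), and WKY was higher by 0.64 (SE 0.21, adjusted p = 0.0446).

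Over the 12, SHR alone departed from the S and R level in 5 circRNAs (ASCRPR009419 and ASCRPR013784, higher, and ASCRPR003318, ASCRPR007329 and ASCRPR010887, lower), and both strains departed in 6, among them ASCRPR001921, whose SHR departure has no measured bound. WKY alone departed in 0 and in 1 there was no common level. In ASCRPR010887 WKY missed the threshold narrowly (limma adjusted p = 0.058) and passed against S alone. In the 6 with both, SHR passed against R alone only in ASCRPR012782 (limma adjusted p = 0.0417). WKY did so only in ASCRPR013242 (adjusted p = 0.00148). Against S alone SHR passed in all 6, and WKY in all but ASCRPR002246 (adjusted p = 0.0952). For ASCRPR013008, ASCRPR001921, ASCRPR001603 and ASCRPR012782 no SHR array and not every S array was above background. In these circRNAs SHR vs S has no measured bound, and WKY vs S rests partly on unmeasured S levels. Over all tested circRNAs SHR differed from the mean of S and R in 790 (6.35%; 2.6% higher, 3.75% lower) and WKY in 3247 (26.1%; 12.1% higher, 14.0% lower), by limma at an adjusted p under 0.05, and both did in 681 (5.48%). These comparisons share the SHR and WKY arrays with the one that chose the 12, so their counts are a description. SHR and WKY differed from the mean of S and R in opposite directions in 7 of the tested circRNAs (0.0563%). These are the 6 above in which both departed and ASCRPR000194, which has no common S and R level.

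The ranges of the rats were also read, without a test. In 5 of the 12 all SHR rats and not all WKY rats lay outside the range of the 6 S and R rats, in 6 both did, and in 1 neither. In those 6 (ASCRPR013242, ASCRPR002246, ASCRPR013008, ASCRPR001921, ASCRPR001603 and ASCRPR012782), SHR and WKY lay on opposite sides of that range. Over all tested circRNAs, SHR was outside the range in 11.3% and WKY in 33.8%. Among the 1128 circRNAs with no overlap between SHR and WKY, SHR alone was outside in 108 (9.57%), WKY alone in 366 (32.4%), both in 66 (5.85%) and neither in 588 (52.1%).

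WKY's departures rest on few arrays. Without WKY rat 2 or without WKY rat 3, WKY departed in 1 of the 12, and on slide 1 alone, with WKY rats 1 and 2 against S and R, it did so in 1, ASCRPR013242 (difference -2.25, SE 0.29, limma adjusted p = 0.0104). SHR and the S and R rats never shared a slide, and with the slide as a block SHR alone departed in 0 and neither strain in 10.

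**Figure D4:**
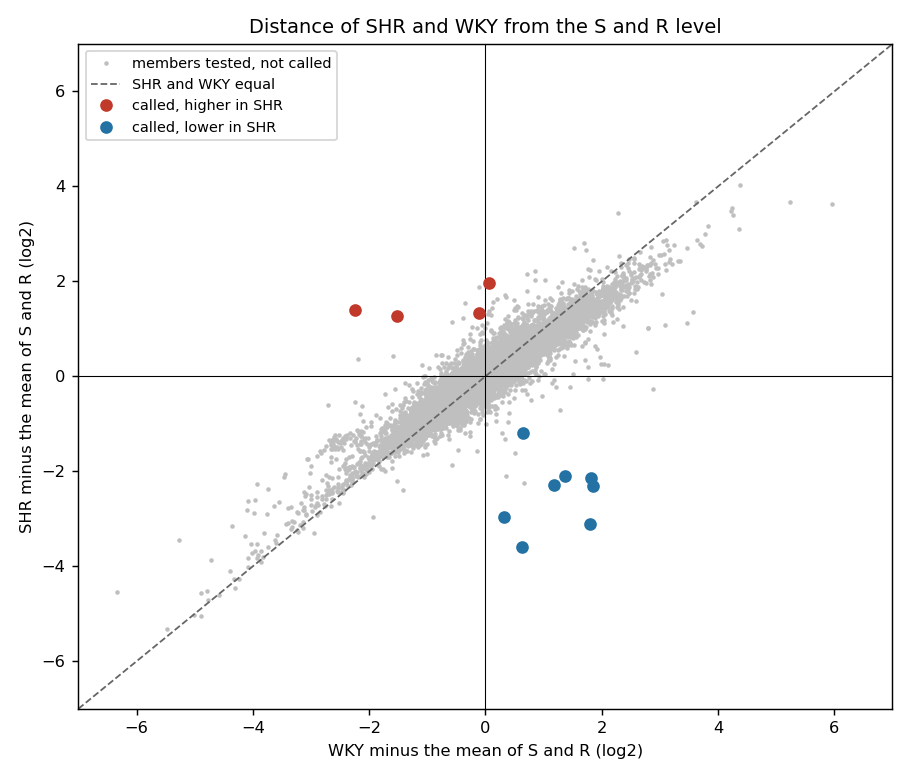
For each of the 11976 circRNAs tested, WKY minus the mean of S and R on the x axis and SHR minus the mean of S and R on the y axis, both in log2 units. Most circRNAs lie along the dashed line of equal SHR and WKY, while the 4 called circRNAs higher in SHR (red) and the 8 lower (blue) lie away from it, above it or below it.

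The S and R rats were uneven on the circRNAs lower in SHR. In 6 of these 8, S rat 2 was the highest S rat, and in 6 of 8, R rat 3 was the lowest R rat. The array of S rat 2 was also the brightest of the S arrays, its 75th percentile being 8.15 on the log2 scale, where S rats 1 and 3 had 6.22 and 7.23, and the part of array brightness in these levels was not tested. In all 8 the WKY mean was above both the S mean and the R mean.

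Just above the threshold stood ASCRPR007857, ASCRPR000754 and ASCRPR001885 (limma adjusted p = 0.0626, 0.0626 and 0.107), while ASCRPR013784 was the last one inside it (0.0428). ASCRPR007857, tested through its S arrays and not among the 11977, had no SHR array above background and 2 of 3 WKY arrays, the WKY rats being at -4.20, -4.25 and -4.41. ASCRPR000754 was the reverse, a pattern found for 5 circRNAs (0.0402%), at -3.61, -3.43 and -3.33 in SHR rats, against -5.50, -4.73 and -5.27 in WKY rats, none above background. S and R rats had ASCRPR000754 at -3.55 to -1.95, all above background, so here SHR rats 2 and 3 were within their range, SHR rat 1 just under it and all WKY rats below it, at least 3.90-fold under S and at least 2.02-fold under R (WKY against the mean of S and R, limma adjusted p = 0.00114). ASCRPR001885 had all SHR rats within the S and R range and all WKY rats below it, with -1.65, -1.53 and -1.43 in SHR rats, against -5.10, -3.41 and -3.74 in WKY rats and -2.79 to -1.17 in S and R rats. Of its WKY arrays 2 of 3 were above background.

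Among circRNAs not called, the 5 with the widest gap in each direction follow. ASCRPR010890 was among the brightest, at 3.57, 3.44 and 3.45 in SHR rats, against 1.93, 1.88 and 2.33 in WKY rats (log2 fold change 1.44, SE 0.29, limma adjusted p = 0.169). ASCRPR011538 had 3.42, 3.44 and 3.30 in SHR rats, against 1.92, 1.69 and 2.27 in WKY rats (1.43, SE 0.30, adjusted p = 0.213). ASCRPR006724 had 2.60, 2.63 and 2.62 in SHR rats, against 1.23, 1.11 and 1.52 in WKY rats (1.32, SE 0.26, adjusted p = 0.158). In these 3, the SHR rats were all above the S and R rats and the WKY rats were among them. Each of the 3 had WKY rat 3 as the highest WKY rat and S rat 2 as the highest S rat. ASCRPR001885 and ASCRPR000754, above, complete the 5 higher in SHR.

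Lower in SHR and not called were 5 circRNAs with gaps of 1.36 to 2.39 log2 units. ASCRPR000752 was at -5.63, -5.09 and -6.33 in SHR rats, none above background, against -2.68, -2.22 and -2.70 in WKY rats, and 1 of the 6 S and R arrays had it above background. It was at least 3.53-fold lower in SHR (limma adjusted p = 0.107). ASCRPR001904 was at -4.30, -4.61 and -5.00 in SHR rats, against -2.93, -2.06 and -2.30 in WKY rats and -7.50 to -4.84 in S and R rats (adjusted p = 0.826). For ASCRPR001904 only 1 SHR array, 1 S array and no R array were above background, so most of these levels were not measured. ASCRPR009543 was at -2.03, -2.74 and -2.04 in SHR rats, against -0.36, -0.35 and -0.074 in WKY rats (log2 fold change -2.01, SE 0.37, adjusted p = 0.107), and WKY was outside the S and R range of -2.44 to -0.98. ASCRPR006437 was at -5.29, -7.19 and -5.80 in SHR rats, none above background, against -3.26, -2.49 and -3.79 in WKY rats (adjusted p = 0.107). It was at least 2.25-fold lower in SHR than in WKY. Its SHR signals lay below all S and R rats, but the bound against R was only 1.26-fold. ASCRPR012037 had 1 SHR array above background, at -4.02 in rat 2, and WKY rats at -1.95, -2.38 and -1.77 (adjusted p = 1).

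**Figure D5:**
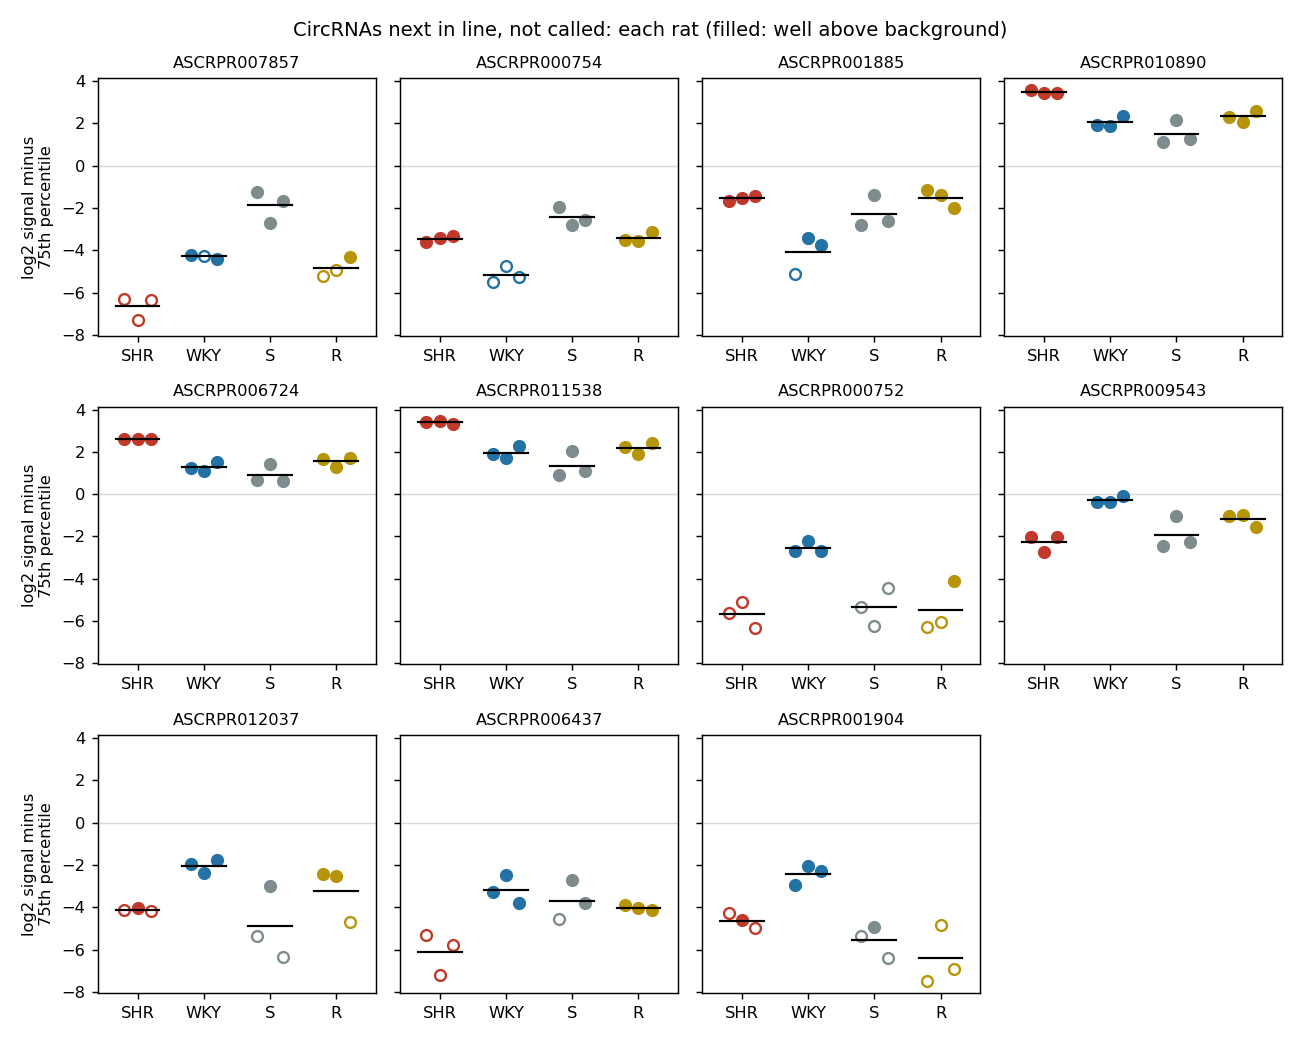
Log2 signal minus the array's 75th percentile for each rat of SHR, WKY, S and R in the 11 circRNAs that come next in line and were not called, with bars at the strain means and open points where a spot was not well above background. WKY points lie above those of the other strains for ASCRPR000752, ASCRPR001904, ASCRPR009543 and, narrowly, ASCRPR012037. SHR points do for ASCRPR010890, ASCRPR006724 and ASCRPR011538.

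Linear mRNA probes on the same arrays give the RNA that RNase R left. None of 35 probes was called in SHR vs WKY (0.0%, limma, adjusted p under 0.05), and 0 had an unadjusted p under 0.05. Against the mean of S and R, 13 probes were called in SHR (37.1%) and 24 in WKY (68.6%). The spread within SHR was wide, and SHR rat 2 was the lowest SHR rat on 27 of the 35 probes. The part of that rat in the spread was not tested. Rplp1, a protein of the ribosomal stalk, was at 5.77, 0.20 and 5.01 in SHR rats, against 2.52, 6.27 and 5.85 in WKY rats (log2 fold change -1.22, SE 1.298, adjusted p = 0.775). Pld1, a phospholipase D, had -2.501, -5.54 and -3.02 in SHR rats, 2 of 3 arrays above background, against -3.32, -1.69 and -2.52 in WKY rats (adjusted p = 0.775). Cse1l, an exporter of importin alpha from the nucleus, had 0.53, -3.66 and -0.11 in SHR rats, against -1.35, 0.26 and 0.83 in WKY rats. Ndfip2, an adaptor of ubiquitin ligases, had -1.86, -4.79 and -2.42 in SHR rats, against -2.73, -1.55 and -1.83 in WKY rats. In all 4, SHR rat 2 lay below both other SHR rats and every WKY rat.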

How the data were processed

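Total kidney RNA was digested with RNase R and labelled with Cy3 by random priming, per the labels' protocols. The scanner files hold 1-colour signal intensities that Agilent Feature Extraction 11.0.1.1 background-subtracted and detrended, per the file headers, with no normalization between arrays. The deposited table of log2 values was used as an alternative only. The submitters' processing notes name limma without its role.

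Here each array was scaled to its 75th percentile over circRNA probes on the log2 scale, and 40 spots with outlier flags were treated as missing. No circRNA spot was saturated. Models with 1 mean per strain were fitted to the 12 arrays by lmFit and eBayes from limma 3.58.1 under R 4.3.3, leaving 8 residual degrees of freedom. P-values were Benjamini-Hochberg adjusted over the 12438 circRNAs above background on all 3 arrays of any strain with at least 2 values per strain. Of 44 mRNA probes with a RefSeq accession, 39 matched 1 gene in the GRCr8 gene table and 35 were bright enough to fit apart, with 10 spots averaged per probe. A strain departs from the S and R level where its difference from the mean of the S and R means passes 0.05. The script was tested on simulated data. Alternatives were other background corrections, scalings, filters, the slide or replicate number as a block, fewer samples, other variance models and leaving out each rat.

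Named are the called circRNAs, the 3 next by adjusted p, the 5 uncalled in each direction with the widest gap (lowest rat of the brighter strain minus highest of the dimmer), and the 4 mRNA probes with the largest log2 fold change. The circRNAs and lists were chosen with earlier results of these data known. The rats are separate animals, per the labels. The number of arrays limits the precision.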

Additional observations from a re-analysis of the deposited data

Results flagged for a closer look

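The difference between the strain pairs, SHR minus WKY less S minus R, passed the threshold for 7 of the 12 called circRNAs (limma, Benjamini-Hochberg adjusted p under 0.05), as for 0.0884% of all tested. It contains SHR minus WKY, the comparison that chose the 12, so this count is a description and not a separate result. For ASCRPR013242 it was 4.64 (adjusted p = 0.00014): SHR was 3.64 above WKY, and S vs R missed the threshold (adjusted p = 0.184). For ASCRPR000194 it was 5.92 (adjusted p = 0.00014), the pairs going opposite ways, with fitted differences of 2.81 for SHR minus WKY and -3.11 for S minus R. WKY and S each had 1 of 3 arrays above background for it, so these sizes rest on levels mostly not measured. The other 5 had no SHR array above background, so no size is given: ASCRPR003318 (adjusted p = 0.0116), ASCRPR001921 and ASCRPR012782 (0.0262 each), ASCRPR007329 (0.0281) and ASCRPR013008 (0.0428). In those 5 circRNAs S vs R gave differences of 0.046 to 0.42 log2 units, all with an adjusted p above 0.05. Their pair difference is therefore mostly SHR vs WKY again, with SHR levels that were not measured.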

How the results depend on the processing

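In every alternative that could be run, the 12 called circRNAs kept their direction. They kept their call in 210 of 290 fits and lost it in 80. ASCRPR007857, not called, turned to 0.0094 with normexp. Normexp, whose offset adds 50 intensity units to every spot, gave 1 call, 1 higher and 0 lower, with 1 departure of SHR alone, 1 of both, 10 of neither and 0 without a common S and R level. The filter on all 12 arrays, which leaves 2 of the 12 to test, gave 1 call, 1 higher and 0 lower, with 1 departure of SHR alone, 1 of both and 0 without a common level. The deposited table gave 6 calls, 3 of them lower, with WKY alone departing in 2 and both in 3. The slide block gave 1 call, 1 higher and 0 lower, with SHR alone departing in 0, WKY alone in 1, both in 0 and neither in 10. Slide 2 alone gave 0, 0 higher and 0 lower. Array weights gave 86, with 42 higher and 44 lower, SHR alone departing in 3, both in 3, and 6 without a common level. Only SHR and WKY fitted gave 2 higher. Quantile normalization had WKY alone departing in 1. Slide 1 alone, chosen after seeing the data, had WKY departing in 1.

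Without any one rat the count ran from 7 to 25, with 2 to 11 higher and 5 to 14 lower. SHR alone departed in 3 to 10, WKY alone in 0 to 3, both in 1 to 6, neither in 0 to 1, and 1 to 4 had no common S and R level. The mRNA count was 0 without any one rat, 0 with the replicate block and 0 with the slide block (limma). The replicate numbers do not pair the rats: deviations of same-numbered SHR and WKY rats correlated at -0.52, -0.54 and -0.14, and no SHR rat correlated best with its own number. With the replicate block 11 circRNAs were called, all among the 12. Dim spots limit circRNAs with no SHR array above background to lower bounds, among them 7 of the 8 called lower in SHR.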

Other observations

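The circRNAs above background on every array of one strain and on none of the other include some that were not called, and these were named after their values were seen. On every SHR array and no WKY array were 5 (0.0402% of those tested), with 0 called: ASCRPR000754, ASCRPR003497, ASCRPR003632, ASCRPR001940 and ASCRPR011256. ASCRPR003497 was at -3.48, -4.05 and -3.66 in SHR rats, against -6.18, -4.44 and -6.85 in WKY rats, at least 1.60-fold higher in SHR (limma adjusted p = 0.42). ASCRPR011256 was at -3.59, -2.38 and -3.83 in SHR rats, against -4.77, -4.91 and -4.63 in WKY rats, at least 2.21-fold higher in SHR (adjusted p = 1). All 6 S and R arrays had both of these and ASCRPR000754 above background, so in these 3 WKY was the strain with no array above background.

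The reverse pattern, on every WKY array and no SHR array, held for 15 circRNAs, of which 7 were called. In 2 of the 15 all 6 S and R arrays were above background, ASCRPR007329 and ASCRPR010942, and in the other 13 some S or R arrays were not. ASCRPR010942 was at -4.65, -5.20 and -4.11 in SHR rats, against -3.05, -3.31 and -3.26 in WKY rats and -3.66 to -2.52 in S and R rats, at least 2.21-fold lower in SHR than in WKY (limma adjusted p = 0.166). No circRNA of either pattern was absent from all S and R arrays. The 8 uncalled ones of the reverse pattern had lower bounds of 1.18 to 3.53-fold.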
